A study of Rattus norvegicus with 18 samples.

Results

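The regions described here were all open-chromatin peaks within 500 kb on either side of the start sites of Fosb and Nr4a1 in rat neurons. By this rule of position alone, 97 peaks of the Fosb window on chromosome 1 and 99 peaks of the Nr4a1 window on chromosome 7 were members, 196 of the 192830 peaks in the list. The assay was ATAC-seq, in which a transposase cuts accessible DNA, on primary cultures from Sprague-Dawley rat embryos at embryonic day 18, kept for 11 days in vitro. Cortical, hippocampal and striatal cultures each gave 3 libraries after vehicle (neurobasal medium) and 3 after KCl for 1 h, 18 libraries in all. The sample labels give the KCl dose as 25 mM and the series design text as 10 mM. The authors pooled both treatments before peaks were called in each culture system and then joined the 3 systems, so a listed peak has a position, a length and a whole number in the fourth column, with no value per library, treatment or culture system. KCl could therefore not be compared with vehicle, the sequencing depth is not known, and the labelled brain regions could not be checked against marker genes. Positions are on rn6. The meaning of the fourth-column value is not given in the sources used here, and the values are reported as they stand.

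Fosb encodes a subunit of AP-1, a transcription factor made of Fos and Jun family proteins, and Nr4a1 encodes Nur77, an orphan nuclear receptor. Both are immediate early genes: they are transcribed soon after neurons are depolarized, without new protein synthesis, when calcium entry activates factors such as CREB and SRF that already sit in the nucleus. CREB binds the cAMP response element, or CRE. Enhancers, which can lie far from the gene they act on, and promoters are both usually found in accessible chromatin.

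The study designed 20-base CRISPR guides against an enhancer and the promoter of each gene. They are shown because they tie individual peaks to the regions that the study targeted, and because their sequences can be searched without a genome. The 10 guides read as follows, 5′ to 3′, without the PAM.
Fosb enhancer guide 1: gttgtttgtccccggccagg
Fosb enhancer guide 2: gagggctcaaggagtcgctc
Fosb enhancer guide 3: accttcctgtcgctaggcaa
Fosb promoter guide 1: ggcgcggccgactgtttgtt
Fosb promoter guide 2: cggaggcataaattcagctc
Nr4a1 enhancer guide 1: gtgtgtggaaacttgtagcg
Nr4a1 enhancer guide 2: cgggctccctgcggattgcg
Nr4a1 promoter guide 1: gactgggaaagcgacaaagg
Nr4a1 promoter guide 2: ccggggctacttctcagccg
Nr4a1 promoter guide 3: gaatgacaccgtaggtgtcc

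All 10 listed guide positions lay inside a peak, in 4 peaks altogether. Each of these peaks had a fourth-column value of 3, which 18.7% of autosomal peaks had. The paper identified its candidate enhancers among open-chromatin regions of these libraries, so enhancer guides would lie inside peaks by their design. The 3 Fosb enhancer guides spanned 91 bp near the middle of a peak of 1147 bp (chr1:80231416-80232562), at 30, 61 and 9 bp from its centre. The Fosb promoter guides lay off the middle of the peak of 2668 bp at the start site (chr1:80219812-80222479), 839.5 and 593.5 bp from its centre on the upstream side. The Nr4a1 enhancer guides were 227 bp apart, at 123 and 104 bp on opposite sides of the centre of a peak of 859 bp (chr7:142890557-142891415). Nr4a1 promoter guides 1 and 3 lay 210 and 236 bp from the centre of a peak of 1755 bp (chr7:142911111-142912865), which is inside the gene as it is bounded on rn6. The position listed for Nr4a1 promoter guide 2 is the same as that of enhancer guide 2, although the sequences differ, so it is uncertain to which of these guides the position belongs, and the place of both among the peaks carries that doubt.

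Of the 10 guides, 1 had an exact match on either strand in the RefSeq promoter windows of 27457 rat genes, each reaching 250 bases before the start and 50 after it (GRCr8). This was Nr4a1 enhancer guide 2, and the window belonged to LOC134479786, a long noncoding RNA that precedes Nr4a1 in the RefSeq order of all gene types on chromosome 7, with no other listed gene between them. The RNA was named after this match was seen. It is annotated on the minus strand and Nr4a1 on the plus strand, so the RNA is read away from Nr4a1. The 250 bases before its start (GRCr8 chr7:134238855-134239104, minus strand) are shown because they hold the exact site of a guide designed against the Nr4a1 enhancer, with the guide site and its PAM in capitals.
LOC134479786: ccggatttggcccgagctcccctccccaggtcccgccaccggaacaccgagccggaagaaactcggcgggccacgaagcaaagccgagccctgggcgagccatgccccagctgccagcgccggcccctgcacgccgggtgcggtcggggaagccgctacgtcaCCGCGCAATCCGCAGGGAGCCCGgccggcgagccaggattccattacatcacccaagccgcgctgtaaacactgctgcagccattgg

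The guide matched the strand opposite to the one shown, 65 to 84 bases before the start of LOC134479786, and was followed there by the PAM CGG. Directly beside the PAM, with 0 bases between, stood a CRE core, the letters TGACG or their reverse complement CGTCA, 88 to 92 bases before the start. A CRE core was held by 18.8% of all promoter windows over the same 250 bases. The rn6 position listed for this guide, which is also that of promoter guide 2, was 14668 bp upstream of the Nr4a1 start site. Whether the rn6 peak at that position covers the start of the RNA was not determined. Whether the RNA was made in these cultures was not analysed here.

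The RefSeq window of Nr4a1 itself (GRCr8 chr7:134259888-134260137, plus strand, the 250 bases before the start) is shown for its CRE cores, which are in capitals.
Nr4a1: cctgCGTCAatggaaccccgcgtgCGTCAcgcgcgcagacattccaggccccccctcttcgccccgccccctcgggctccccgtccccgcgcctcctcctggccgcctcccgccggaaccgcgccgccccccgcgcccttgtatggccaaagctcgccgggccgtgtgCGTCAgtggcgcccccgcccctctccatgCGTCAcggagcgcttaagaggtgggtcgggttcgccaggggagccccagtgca

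It held 4 CRE cores, beginning 246, 226, 82 and 53 bases before the start. At least 4 cores occurred in 50 of the 27457 windows, or 0.182%. All 4 were written as CGTCA on the strand shown, and the full CRE palindrome TGACGTCA, which contains the core and was held by 1.68% of windows, was not among them. The window was also rich in G and C, at 74.8% against a median of 52% over all windows. The forward primer that the study used for Nr4a1 mRNA (aagttggggtagtgtgcgag) matched bases 12 to 31 after this RefSeq start. None of the 3 Nr4a1 promoter guides matched the window, and without a genome of the same build it was not determined which rn6 peak holds this start. On GRCr8 the RefSeq start lay 21.2 kb from the matched site of enhancer guide 2. On rn6 the start site used here lay 14.7 kb from the listed position of that guide, and the peak with promoter guides 1 and 3 reached from 20021 to 21775 bp from it. These distances rest on a listed position that may belong to the other guide and on different builds, so it was not determined whether the start site used for distances at Nr4a1 is the RefSeq start. The window lay inside the bounds of the gene in the RefSeq table.

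The RefSeq window of Fosb held no CRE core and no full CRE, and 1 TATA motif (TATAAA or its reverse complement, in 13.2% of windows), 175 to 180 bases before the start. Its share of G and C was 43.6%. This window also lay inside the bounds of its gene, and neither Fosb promoter guide matched it, so it was not shown to be the sequence at the rn6 start site. Among 21 activity-regulated genes, 16 had a window. Fos, Jun, Nr4a3, Egr3 and Arc had no entry. A CRE core was found in 11 of the 16, or 68.8%, against the 18.8% of all windows, and no other gene of the 16 held as many as Nr4a1. Jund, which encodes a partner of Fosb in AP-1, and Dusp1, which encodes a phosphatase of MAP kinases, each held 3. The full CRE was found in Jund, Ier2 and Dusp1. The CArG box, which SRF binds, was found in Egr1 and Egr2 alone among the 16 and in 1.49% of all windows. The AP-1 motif TGANTCA, held by 6.41% of windows, was found in 0 of the 16, and the E-box CACGTG, held by 5.73%, in Dusp1 alone. These matches are letters in a window, on either strand, and not binding sites. The comparison with all windows was not matched for the share of G and C. Among the 16 genes this share reached from 43.2% (Klf4) to 82.8% (Sik1), and in most of them it was above the 52% median of all windows. Whether the frequency of CRE cores among them goes with their G and C was not tested.

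Both windows were well filled with peaks, and nearly equally so. The 97 peaks of the Fosb window stood at the 82.2 percentile and the 99 peaks of the Nr4a1 window at the 84.2 percentile of 2609 windows of 1 Mb that tile the 20 autosomes. The median autosomal window held 74 peaks, with quartiles of 53 and 91. Against windows of their own chromosomes the places were similar, at the 80.5 percentile of 282 windows for Fosb and the 81.7 percentile of 145 for Nr4a1. These ranks are descriptions with no test, because neighbouring windows of a chromosome are not replicates.

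The windows differed in how much DNA the peaks covered. In the Fosb window 118758 bp, or 11.9%, lay inside peaks, 1.23 times the 96710 bp, or 9.67%, of the Nr4a1 window. The median autosomal window had 59970 bp inside peaks. By this measure the Fosb window stood at the 98.3 percentile, with 45 of the 2609 windows at or above it, and the Nr4a1 window at the 91.3 percentile, with 227 at or above it. The Fosb window thus had more covered DNA than the Nr4a1 window from nearly the same number of peaks. With peaks shorter than 300 bp left out, the order of the numbers turned, with 89 peaks at Fosb and 86 at Nr4a1.

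**Figure D1:**
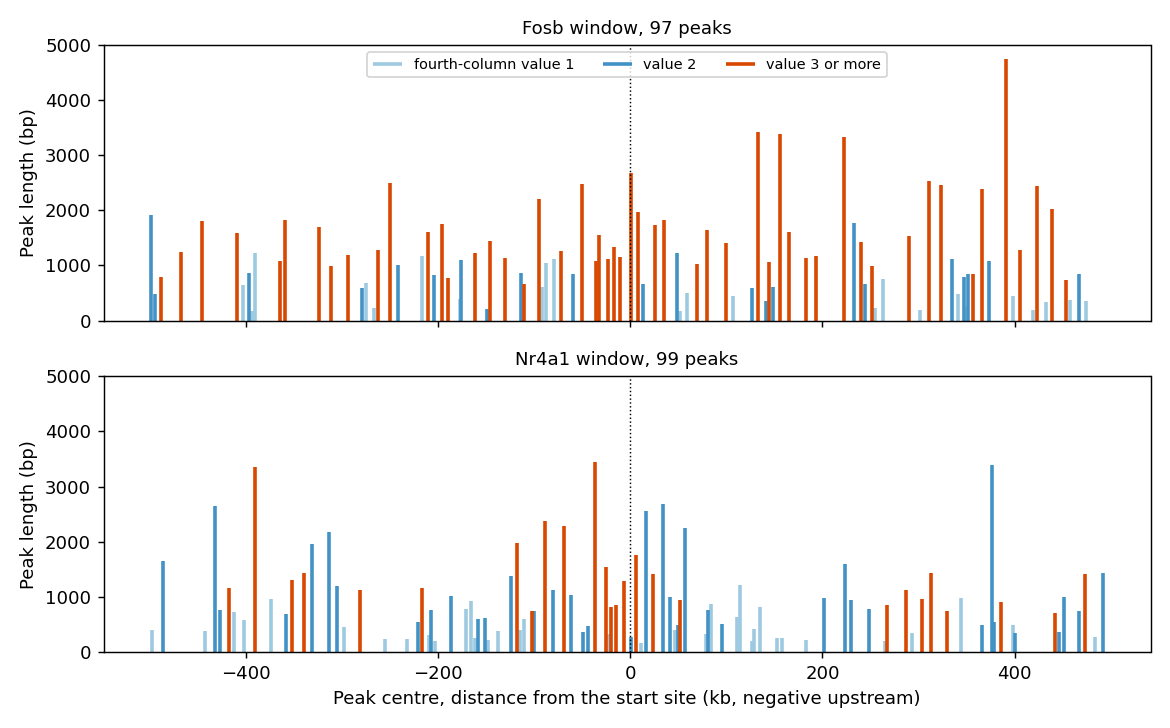
Length of each peak (bp, vertical axis) against the distance of its centre from the start site (kb, horizontal axis, negative upstream), for the 97 peaks of the Fosb window and the 99 of the Nr4a1 window, coloured by fourth-column value. Peaks with a value of 3 or more run through the whole Fosb window, while 8 peaks with a value of 1 stand together between 100 and 200 kb downstream of Nr4a1.

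The fourth-column values set the windows apart more than the number of peaks did. A value of 3 or more was carried by 52 of the 97 Fosb peaks, or 53.6% (Wilson 95% interval 43.7 to 63.2%), and by 26 of the 99 Nr4a1 peaks, or 26.3% (18.6 to 35.7%), against 19.3% of the 187393 autosomal peaks. The difference of 27.3 percentage points between the windows had a Newcombe 95% interval of 13.7 to 39.6 points. Intervals cover the counting of peaks only, not cultures or animals, and neighbouring peaks may not be independent. The Fosb share stood at the 98.7 percentile and the Nr4a1 share at the 81.2 percentile of the 2582 autosomal windows with 10 or more peaks. Only 10 autosomal windows had at least as many peaks as the Fosb window together with at least its share at 3 or more, while 131 reached both values of the Nr4a1 window.

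A value of 1 was less frequent in both windows than the 48.4% among autosomal peaks. It was carried by 23 Fosb peaks, or 23.7% (16.4 to 33.1%), and by 35 Nr4a1 peaks, or 35.4% (26.6 to 45.2%). The interval of this difference, from 23.9 points lower in the Fosb window to 1.14 points higher, includes 0. A value of 2 was carried by 38 Nr4a1 peaks, or 38.4% (29.4 to 48.2%). In the Fosb window it was carried by 22 peaks, or 22.7% (15.5 to 32.0%). Among autosomal peaks the share was 32.3%, which is inside the Nr4a1 interval and just above the Fosb interval. Values above 3 were rare, at 2 peaks in the Fosb window and 1 in the Nr4a1 window, and 0.545% of autosomal peaks.

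Windows with more peaks tended to hold a higher share at 3 or more, with a Spearman correlation of 0.419 across the 2582 windows, which share the same pooled libraries. Among the 640 windows within 10 peaks of the Fosb window, the median share at 3 or more was 20.1%, and the Fosb window stood at the 99.7 percentile. Among the 595 windows within 10 peaks of the Nr4a1 window the median was 20.2%, and the Nr4a1 window stood at the 73.9 percentile. At matched numbers of peaks, the Fosb window was therefore near the top and the Nr4a1 window in the upper part of the range.

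**Figure D2:**
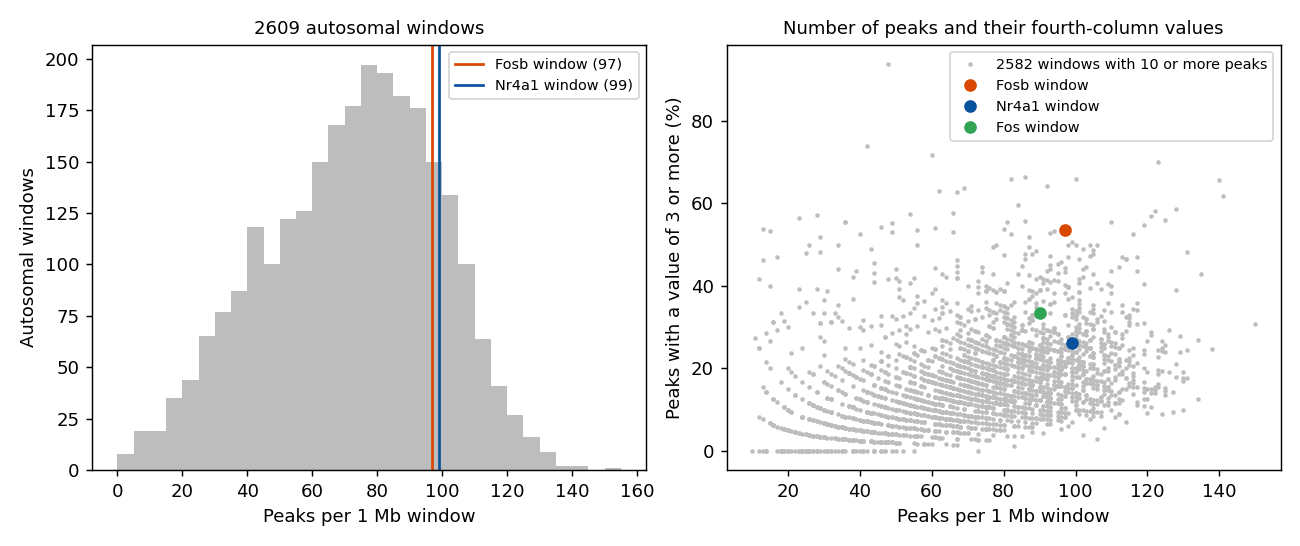
Left, number of the 2609 autosomal 1 Mb windows by their peaks, with lines at 97 (Fosb) and 99 (Nr4a1). Right, share of peaks with a fourth-column value of 3 or more (%) against peaks per window for the 2582 windows with 10 or more peaks, with Fosb at 53.6%, Nr4a1 at 26.3% and Fos at 33.3%.

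Peaks of the Fosb window were long. Their median length was 1106 bp (distribution-free 95% interval 865 to 1218 bp), with quartiles of 665 and 1602 bp, against 777 bp (700 to 952 bp) and quartiles of 415 and 1207.5 bp in the Nr4a1 window. The median over all autosomal peaks was 689 bp. A length of 1000 bp or more was reached by 56 Fosb peaks, or 57.7% (47.8 to 67.1%), and by 34 Nr4a1 peaks, or 34.3% (25.7 to 44.1%), against 28.2% of autosomal peaks. The difference was 23.4 points, with an interval of 9.44 to 36.1 points. By median length the Fosb window stood at the 99.5 percentile and the Nr4a1 window at the 82.1 percentile of the 2582 windows.

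Length went with the fourth-column value in both windows. The value may count the peaks that were merged into a listed peak, in which case merging would itself give longer peaks higher values, and this was not tested. In the Fosb window the median was 438 bp among peaks at 1, 841 bp at 2 and 1491 bp at 3 or more. The Nr4a1 medians were 391, 862 and 1226 bp, and those of all autosomal peaks 430, 829 and 1325 bp. At each value the 95% intervals of the windows overlapped, at 3 or more from 1244 to 1740 bp for Fosb and from 952 to 1437 bp for Nr4a1. The mean length was 1224 bp in the Fosb window and 977 bp in the Nr4a1 window. With values of 1, 2 and 3 or more weighted to their autosomal shares, the means became 859 and 870 bp, near the autosomal 842 bp. Most of the difference in mean length between the windows thus accompanied their different mix of values. Peaks at 3 or more made up 73.7% of the summed peak length in the Fosb window, 38.5% in the Nr4a1 window and 35.1% on the autosomes. Peaks at 2 made up 16.2% in the Fosb window, 44.4% in the Nr4a1 window and 35.7% on the autosomes.

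**Figure D3:**
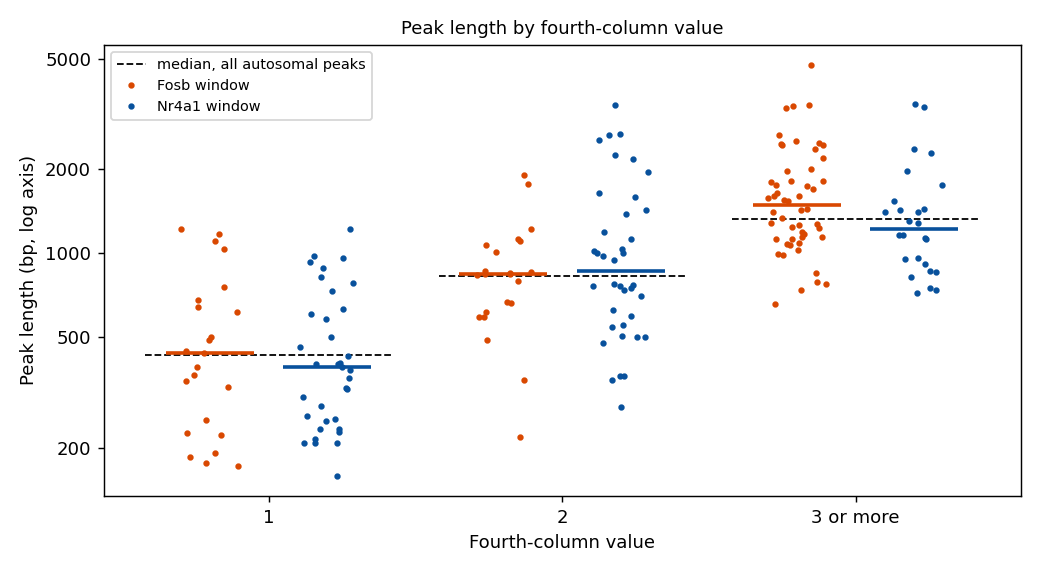
Length of each peak (bp, log axis) by fourth-column value for the Fosb and Nr4a1 windows, with coloured bars at the window medians and dashed lines at the medians of all autosomal peaks (430, 829 and 1325 bp). The window medians lie close to the dashed lines at each value.

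Within 50 kb on each side of the start site, 12 peaks were listed at Fosb and 17 at Nr4a1, at the 87.7 and 99.1 percentiles of autosomal windows of 100 kb. Peaks covered 17.5% of these 100 kb at Fosb and 19.9% at Nr4a1, the 98.9 and 99.3 percentiles. The autosomal windows were tiled by position and not centred on start sites, so these ranks do not compare the genes with other genes. Within 25 kb the counts were 6 and 10, at the 83.3 and 99.3 percentiles of windows of 50 kb. Within 10 kb both genes had 3 peaks, which covered 24.7% at Fosb and 16.6% at Nr4a1. The covered share was higher at Nr4a1 within 50 kb and higher at Fosb within 10 kb. Within 25 kb its order depended on the centre. Around the start sites it was 17.8% at Fosb and 20.8% at Nr4a1. Around the first listed promoter guide of each gene, a centre chosen after seeing the data, it was 17.8% and 16.6%, and the Nr4a1 count within 25 kb fell from 10 to 7 peaks, at the 91.0 percentile. Peaks within 50 kb were longer at Fosb, with a median of 1447.5 bp against 859 bp.

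The peaks nearest to Fosb were nearly uniform in their values. Of the 12 within 50 kb, 10 had a value of 3 or more, 2 had a value of 2 and none had a value of 1. The nearest peak with a value of 1 was centred 52.3 kb from the start site. In a comparison chosen after these values were seen, 12 of the 3847 autosomal windows of 100 kb with 12 or more peaks, or 0.312%, had no peak at 1, and 97, or 2.52%, had 10 or more at 3 or more. The longest unbroken run of neighbouring peaks at 3 or more in the Fosb window was 8 peaks over 60814 bp. This run was picked after the values were seen. It included the start-site peak and the enhancer peak, and reached from 8.48 kb downstream to 50.1 kb upstream. A run of 8 or more was found in 62 of the 2609 autosomal windows of 1 Mb, or 2.38%, and in 21 of the 640 within 10 peaks of the Fosb window, or 3.28%.

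The peaks nearest to Nr4a1 were mixed. Of the 17 within 50 kb, 7 had a value of 3 or more, 7 had a value of 2 and 3 had a value of 1. Over all autosomal peaks the shares were 19.3% at 3 or more, 32.3% at 2 and 48.4% at 1. Among these 17 peaks, values of 3 or more were thus more frequent than on the autosomes, and values of 1 less frequent. The peaks are few, no interval was computed, and peaks near other start sites were not compared. Around the first listed promoter guide, the 17 peaks within 50 kb were 8 at 3 or more, 6 at 2 and 3 at 1. The peak closest to the rn6 start site was one of the smaller members, with 280 bp and a value of 2, ranking 88 of 99 by length. The shortest peak of the window, 159 bp with a value of 1, was centred 11.2 kb downstream, within the gene. No run at 3 or more in the Nr4a1 window was longer than 3 peaks, and 2 runs had that number. The run upstream of the gene, from 20.2 to 6.39 kb, spanned 14836 bp with the enhancer peak in its middle, and the other, from 303 to 330 kb downstream, spanned 27223 bp. Runs of 3 or more were common, in 978 of the 2609 autosomal windows, or 37.5%, and in 331 of the 595 within 10 peaks of the Nr4a1 window, or 55.6%.

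A peak covered the start site of Fosb, and none covered the rn6 start site of Nr4a1, where the nearest peak edge was 462 bp away. It was not determined whether this Nr4a1 position is the RefSeq start, or which peak holds that start. The peak over the Fosb start site ranked 5 of 97 by length and stood at the 98.2 percentile of autosomal peaks, and it covered 26.3% of the Fosb gene. The 3 peaks within the Nr4a1 gene covered 15.2% of it. The longest of them, which holds promoter guides 1 and 3, ranked 13 of 99 and stood at the 92.1 percentile. The enhancer peaks were of middling length, ranking 43 of 97 at Fosb and 46 of 99 at Nr4a1, at the 78.5 and 63.3 percentiles of autosomal peaks. At both genes, then, the enhancer peak was shorter than the peak with the promoter guides.

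**Figure D4:**
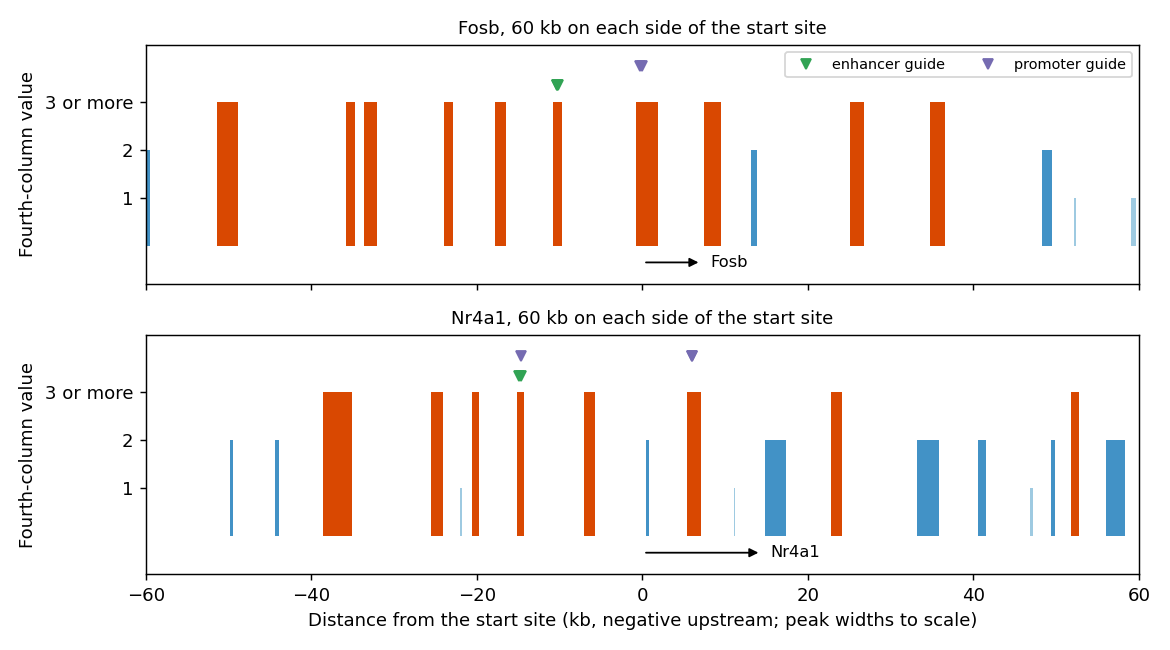
Peaks within 60 kb of the start sites of Fosb and Nr4a1, with widths to scale (kb, horizontal axis, negative upstream) and height showing the fourth-column value. Triangles mark listed guide positions and arrows the genes. At Fosb 8 neighbouring peaks at 3 or more surround the start site, and the nearest peak at 1 is centred 52.3 kb away. At Nr4a1 the nearest peak at 1 is centred 11.2 kb away, among peaks at 2, 3 and 5.

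Neighbouring peaks of the start-site peak were next compared. At Fosb, the neighbour on the upstream side was the enhancer peak, centred 10.3 kb from the start site, and the one on the downstream side was a peak of 1970 bp with a value of 3 (chr1:80212241-80214210), 8.48 kb away and just past the end of the gene. At Nr4a1, the peak nearest to the start site had as neighbours a peak of 1289 bp with a value of 3 (chr7:142898725-142900013), 6.39 kb upstream, and the peak with the promoter guides, 6.23 kb downstream. The enhancer peak of Nr4a1 was the next one farther upstream, at 14.8 kb.

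The largest peaks of each window lay in different places. In the Fosb window, the longest peak measured 4736 bp (chr1:79828319-79833054) and lay 391 kb downstream, with a value of 4, and the other peak at 4 measured 3414 bp (chr1:80086745-80090158) and lay 133 kb downstream. In the Nr4a1 window, the longest peak and the only one with a value of 5 were the same, of 3449 bp (chr7:142867169-142870617), and it lay 36.9 kb upstream. It held the lower end of Grasp, which RefSeq now calls Tamalin and which encodes a scaffold protein for glutamate receptors. Grasp was named after this overlap was seen. The shortest Fosb peak, of 172 bp with a value of 1 (chr1:80615461-80615632), lay 394 kb upstream.

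Peaks stood on both sides of each start site in similar numbers. Upstream of Fosb lay 46 of its 97 peaks, or 47.4% (37.8 to 57.3%), and upstream of Nr4a1 51 of 99, or 51.5% (41.8 to 61.1%). In the Fosb window, peaks at 3 or more made up 56.5% upstream and 51.0% downstream, and the median lengths were 1116 and 1068 bp. In the Nr4a1 window the shares were 29.4% and 22.9%, and the median lengths 780 and 770 bp. The share and the median length were therefore both higher in the Fosb window on each side. Downstream, the intervals of the shares were apart, at 37.7 to 64.1% for Fosb and 13.3 to 36.5% for Nr4a1. Upstream they overlapped narrowly, at 42.2 to 69.8% and 18.7 to 43.0%. Those of the median lengths overlapped on each side. They were 865 to 1244 and 627 to 1121 bp upstream, and 757 to 1409 and 501 to 964 bp downstream.

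In steps of 100 kb, the Fosb window held from 7 to 13 peaks per step, against a median of 7 in autosomal windows of that size, and each of its 10 steps had at least 4 peaks at 3 or more. Its step with most such peaks was the one just upstream of the start site, with 8 of 12. The Nr4a1 window held 15 peaks in the step just downstream of the start site, 13 in each of the steps that reach 200 kb upstream, and from 7 to 10 elsewhere. The step just upstream had 7 of 13 peaks at 3 or more, and the one just downstream 3 of 15, with 8 at 2. From 100 to 200 kb downstream of Nr4a1, all 8 peaks had a value of 1, with a median length of 343 bp. In a comparison chosen after this was seen, 34 of the 2609 autosomal windows of 1 Mb, or 1.30%, had a step of 100 kb with 8 or more peaks that were all at 1, and so had 6 of the 595 within 10 peaks of the Nr4a1 window, or 1.01%.

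**Figure D5:**
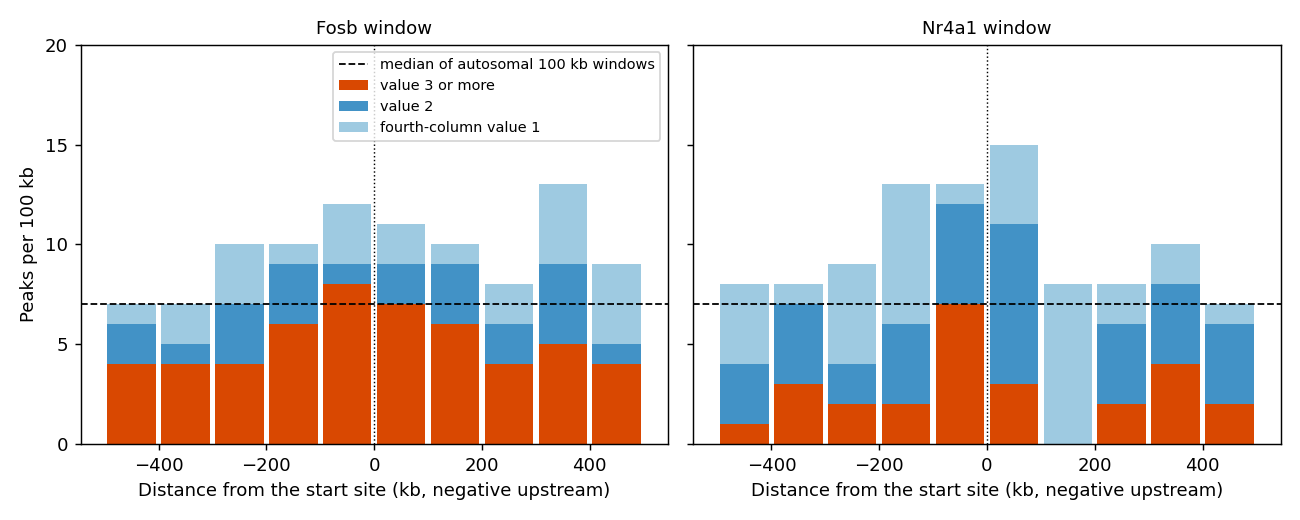
Peaks per 100 kb step from the start site (kb, negative upstream) in the Fosb and Nr4a1 windows, stacked by fourth-column value, with a dashed line at 7, the median of autosomal 100 kb windows. Nr4a1 has its fullest step just downstream of the start site (15 peaks), and its step from 100 to 200 kb holds 8 peaks with a value of 1.

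Gene content differed as well, as far as the RefSeq order shows it (GRCr8, used for names only). Upstream of Fosb, the next protein-coding genes were Ercc1, Polr1g, Ppp1r13l, Ercc2 and Klc3, among them the DNA repair genes Ercc1 and Ercc2. Downstream followed Rtn2, Ppm1n, Vasp, Opa3 and Gpr4. Upstream of Nr4a1 came Tamalin, Acvr1b, Acvrl1, Ankrd33 and Fignl2, and downstream Atg101, Smim41, Krt80, Krt7 and Krt87. Of the next 20 protein-coding genes downstream of Nr4a1, 15 were keratin genes, which are expressed in epithelia, while none of the 20 on its other side and none of the 20 on either side of Fosb were. Apart from Tamalin, whose rn6 place is given above as Grasp, it was not determined which of these neighbouring genes lie in the rn6 windows, or at which peaks.

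Spacing between neighbouring peaks was close to that of the autosomes. The median gap was 6841.5 bp (5629 to 8207 bp) in the Fosb window and 6322.5 bp (5614 to 8987 bp) in the Nr4a1 window, against 7836 bp over the autosomes. The narrowest gaps were 1180 and 1007 bp, so no pair in either window was within 1000 bp. The widest gap at Fosb, 34457 bp, lay from 410 to 444 kb upstream between peaks of 1582 and 1805 bp with a value of 3 each. At Nr4a1 it was 43059 bp, from 442 to 485 kb upstream, between peaks of 380 bp with a value of 1 and 1648 bp with a value of 2.

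No peak crossed the edge of either window. The outermost Fosb members were centred 498 kb upstream and 474 kb downstream, and the next peaks outside, of 356 and 183 bp, 512 kb upstream and 554 kb downstream. The outermost Nr4a1 members were centred 497 kb upstream and 492 kb downstream, and the next outside, of 1624 and 986 bp, 508 kb upstream and 509 kb downstream.

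The adjoining megabases showed how local the high number of peaks was. Beyond the Fosb window, the next 1 Mb held 69 peaks on the upstream side and 53 on the downstream side, both under the 74 of the median autosomal window. Of these, 40.6% and 39.6% had a value of 3 or more, so that the share stayed above the 19.3% of all autosomal peaks while the number fell. Beyond the Nr4a1 window, the next 1 Mb held 89 peaks upstream and 104 downstream, with 29.2% and 35.6% at 3 or more. With 1 Mb taken on each side of the start site, the Fosb window held 138 peaks and fell to the 41.9 percentile of autosomal windows of 2 Mb, whereas the Nr4a1 window held 187 and stood at the 82.9 percentile. In these wider windows, 7.73% of the DNA lay inside peaks at Fosb and 8.97% at Nr4a1, the opposite order to that of the 1 Mb windows.

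The window drawn in the same way around Fos, the gene of another AP-1 subunit, held 90 peaks, of which 30, or 33.3% (24.5 to 43.6%), had a value of 3 or more, with a median length of 865 bp. By share and by median length it lay between the Nr4a1 and the Fosb windows, at the 90.4 and 94.5 percentiles of the autosomal windows, and by number of peaks it was under both, at the 73.1 percentile.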

How the data were processed

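ATAC-seq libraries were grouped by the sample labels into cortical, hippocampal and striatal cultures with vehicle or KCl, 3 libraries each. The authors trimmed reads with Trim Galore 0.4.5, aligned them to rn6 with Bowtie2 2.3.4.2, used SAMtools 1.9, and called peaks with MACS2 on the libraries of each culture system pooled over treatments. Close peaks were merged and short ones removed, and the deposited list joins the 3 systems. Its shortest peak has 146 bp. Each deposited peak has a whole-number score, which the sources do not describe and which is given here as it stands. Starts were converted to count from 1. A peak was a member if it overlapped a window by any base. Whole 1 Mb windows were tiled from position 1 to the last peak of each of the 20 autosomes. A percentile is the share of windows below plus 50% of ties. Shares have Wilson 95% intervals, differences Newcombe intervals, and medians intervals from order statistics. No test was made. Motifs were searched in RefSeq promoter windows (GRCr8). Peaks were named by position, guide, length, value and gap, and the members, lists and rules were chosen with earlier results of these data known. Other window widths, a length minimum, merging and other tilings were tried. Functions were tested on simulated data. Python 3.11.15, numpy 2.4.6, scipy 1.17.1 and matplotlib 3.10.9 were used.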

Additional observations from a re-analysis of the deposited data

How the results depend on the processing

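No paired analysis was possible because the peak list pools all libraries and has no column per library. Leaving out a library could not be tried for the same reason. Of 96 values under other settings, 74 stayed within a set range: 1.5 times for numbers of peaks, otherwise a 95% interval, taken over windows for percentiles and over bases for shares inside peaks. Neither windows nor bases are independent, so this range is narrow for the last of these. Some could not change: no peak crosses an edge (10 values by peak centre), no gap in either window is within 1000 bp (8 values with merging), and no autosomal window lacks peaks (2 values). Of 26 values centred on the first listed promoter guide, chosen after seeing the data, 22 stayed within it. The others were shares inside peaks: 26.0% at Fosb and 17.2% at Nr4a1 within 10 kb, 16.6% at Nr4a1 within 25 kb, where the order of the genes turned, and 17.7% at Fosb within 50 kb. With 250 kb on each side, the Fosb window held 52 peaks (86.0 percentile), 13.5% of it inside peaks and 15.4% of peaks at a value of 1, and the Nr4a1 window 59 peaks (94.7 percentile) and 10.9%. With 1 Mb on each side, the Fosb window fell to the 41.9 percentile with 7.73% inside peaks, and the Nr4a1 window held 187 peaks with 8.97% inside. Numbers of peaks at both other widths were held to the range of the 1 Mb window, so whether they stayed within it depends on the width. By that range the 138 Fosb peaks with 1 Mb on each side counted as unchanged. Keeping peaks of 300 bp or more left 89 Fosb and 86 Nr4a1 peaks, the turned order, and gave Fosb the 87.9 percentile, and shares inside peaks of 11.7% and 9.37%. Merging peaks within 1000 bp gave percentiles of 84.2 and 86.5. Means in place of medians were 1224 and 977 bp. The share at 3 or more was higher at Fosb under all 5 alternatives and the median length, or its mean, under all 7, but the share of DNA inside peaks under 4 of 5, and the number of peaks under 1 of 6. The cause was not tested. Library depth is unknown here, and peaks near the caller's threshold depend on it.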
